A study of Drosophila melanogaster with 35 samples.

Results

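The peptidoglycan recognition protein (PGRP) genes of *Drosophila melanogaster* were followed in RNA-seq of fly heads with altered KDM5. They were also followed in Ribo-Seq with *kdm5* knocked down in neurons. KDM5 is a chromatin protein that takes methyl marks off histone H3 at active genes. The 10 genes were taken by name, as receptors and amidases of the family: *PGRP-LC*, *PGRP-LE*, *PGRP-SA*, *PGRP-SD*, *PGRP-LA*, *PGRP-LF*, *PGRP-LB*, *PGRP-SB1*, *PGRP-SC2* and *PGRP-SC1a*. They are 10 of 17830 genes in the table of head counts, and all 10 were found among the 13963 genes of the Ribo-Seq table. In the heads 9 of the 10 had enough counts to be tested, and *PGRP-SC1a* did not.

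The head libraries came from JmjC, a made demethylase-dead strain (n = 3), from the variant strains A224T, L854F, D234G, R873W and Y874C (n = 3 each), which carry in fly KDM5 the changes found in human KDM5C in Claes-Jensen syndrome, and from flies with wild-type KDM5, WT (n = 5). All flies were kept at 25 °C and taken 1 to 5 days after eclosion. The Ribo-Seq groups were kdm5 knockdown (elav;RPL3-FLAG;kdm5RNAI) and control (elav;RPL3-FLAG), each with 3 IP and 3 Input libraries. Both groups carry elav, which names a neuronal driver, and RPL3-FLAG, a tagged ribosomal protein. Nothing in the labels tells if libraries of 1 strain were made from different flies or cultures, so each p-value rests on a spread between libraries that may be technical. Neither males nor females are named in the sources used here.

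PGRP proteins bind peptidoglycan, the mesh of sugar chains and short peptides in bacterial cell walls. Some are receptors that switch on one of the fly's main immune pathways: Imd, which answers to meso-diaminopimelic acid peptidoglycan of most Gram-negative bacteria, and Toll, which answers to lysine-type peptidoglycan and to fungi. Others are amidases that cut peptidoglycan and so lower the signal, and Imd signalling itself turns several of these amidase genes on. Fat body and blood cells are major sites of this response, and the head holds some of both.

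A run of 3 members stands side by side on the plus strand of chromosome arm 3L in the dm6 build: *PGRP-LA* (9334332 to 9338336), *PGRP-LC* (9338810 to 9348336) and *PGRP-LF* (9349609 to 9351489). Gaps of 473 and 1272 bases separate these neighbours. *PGRP-SD* (7651180 to 7651900) and *PGRP-SB1* (16727299 to 16727989) lie elsewhere on the same arm, *PGRP-LB* on 3R (11452849 to 11460552), and *PGRP-SA* (11561643 to 11562779) and *PGRP-LE* (15801153 to 15803880) on X. In the RefSeq annotation, *PGRP-SD* overlaps *CG32373* and *CG7492*, *PGRP-LF* overlaps *UGP* and *PGRP-LB* overlaps *CG17230*. No source used here states whether the authors counted by strand, and values of these 3 members may include reads of the overlapping genes.

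Library totals were 16993554 to 32985353 counts, except in D234G 1 (3803077) and D234G 2 (4960383). The head libraries fell into 2 sets by *roX2*, a noncoding RNA of male X-chromosome dosage compensation. The high set (18.6 to 41.5 CPM, counts scaled to equal library size) held D234G, R873W, Y874C and WT 1 and 2, and the low set (0.142 to 0.950 CPM) held JmjC, A224T, L854F and WT 3, 4 and 5. WT alone was in both sets, so each strain was compared with all 5 WT libraries and with the WT libraries of its own set. Neuron, photoreceptor and glia markers were detected in every head library, all 8, all 8 and all 7 of them. Summed fat body markers were 9237 to 12003 CPM in D234G and 11174 and 12603 CPM in WT 1 and 2, against 18298 to 66275 CPM in all other libraries. Most of that sum is the yolk protein genes *Yp1*, *Yp2* and *Yp3* (medians of 7555, 10631 and 11550 CPM) and *apolpp* (4753 CPM). It therefore cannot be read as the amount of fat body, and the part of the flies' sex in it was not tested. JmjC 1 and 2 and L854F 1 stood apart in antibacterial peptide transcripts, as described further on. In whole heads, fewer cells of a type and less RNA per cell cannot be told apart.

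In JmjC heads most of the family was higher than in WT, while in each other strain 5 or fewer of the 9 tested members changed in either comparison. Of the 9 members tested, 7 were called higher in JmjC and none lower, with edgeR's quasi-likelihood test at a Benjamini-Hochberg adjusted p under 0.05 over all genes. Of all 12093 genes tested, 26.8% were called in JmjC in either direction and 12.1% were called higher. The median log2 fold of the 9 members was 0.94, against 0.00 for all genes. The same 7 members were called higher against the WT libraries of the same set, where 25.6% of genes were called and 11.4% were higher. Without JmjC 2 only 2 members were called, in either comparison, and without JmjC 1 the count was 4 against all WT and 6 within the set. With JmjC 1 and 2 both left out, JmjC 3 alone gave no call. A fit of JmjC and WT libraries alone called 3 members against all WT. The share of all genes called in these smaller fits was not computed, so the lower counts cannot be read as particular to the members.

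In the other strains of the low *roX2* set few members were called. Against all WT, A224T had no member called by edgeR (2 at an unadjusted p under 0.05, and none by DESeq2), with 14.8% of all genes called, 7.19% higher and 7.57% lower. L854F likewise had none (2 at an unadjusted p under 0.05, and 1 by DESeq2), with 7.79% of all genes called, 4.38% higher and 3.41% lower. Of 12073 genes, DESeq2 called 2162 in A224T and 1256 in L854F. Leaving out A224T 2 or WT 3 gave 1 call in A224T, and leaving out WT 1 or WT 3 gave 1 in L854F. Against WT of the same set, A224T had no member called by edgeR (3 at an unadjusted p under 0.05, and 1 by DESeq2), with 17.7% of all genes called, 8.46% higher and 9.20% lower. It had 2 calls without A224T 2 and 1 without WT 3 or WT 4. DESeq2 called 2382 of 12085 genes in A224T within the set. For the fits with a library left out, the share of all genes was not computed. L854F had 2 members called higher within the set, with 11.3% of all genes called, 5.63% higher and 5.71% lower.

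In the high *roX2* set, every call was lower than WT. D234G had 2 members called lower against all WT, R873W had 3 and Y874C had 2, where 19.0%, 21.8% and 10.0% of all genes were called lower and 44.2%, 43.7% and 19.3% were called in either direction. In Y874C another 9.27% of genes were called higher. For 9 members these counts are near what those background shares give. Against WT of the same set the counts of members called lower were 2, 5 and 1, with 10.7%, 18.8% and 5.93% of all genes called lower and 31.0%, 37.7% and 12.8% called in either direction. Genes called higher made up 20.3% in D234G and 6.85% in Y874C. The count was 0 in D234G without D234G 1, WT 1 or WT 2, 2 in R873W without WT 1 or WT 2 (3 without R873W 2), and 0 in Y874C without WT 1. Shares of all genes called in these smaller fits were not computed. All strains share the WT libraries, so their results are not independent of each other.

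**Figure D1:**
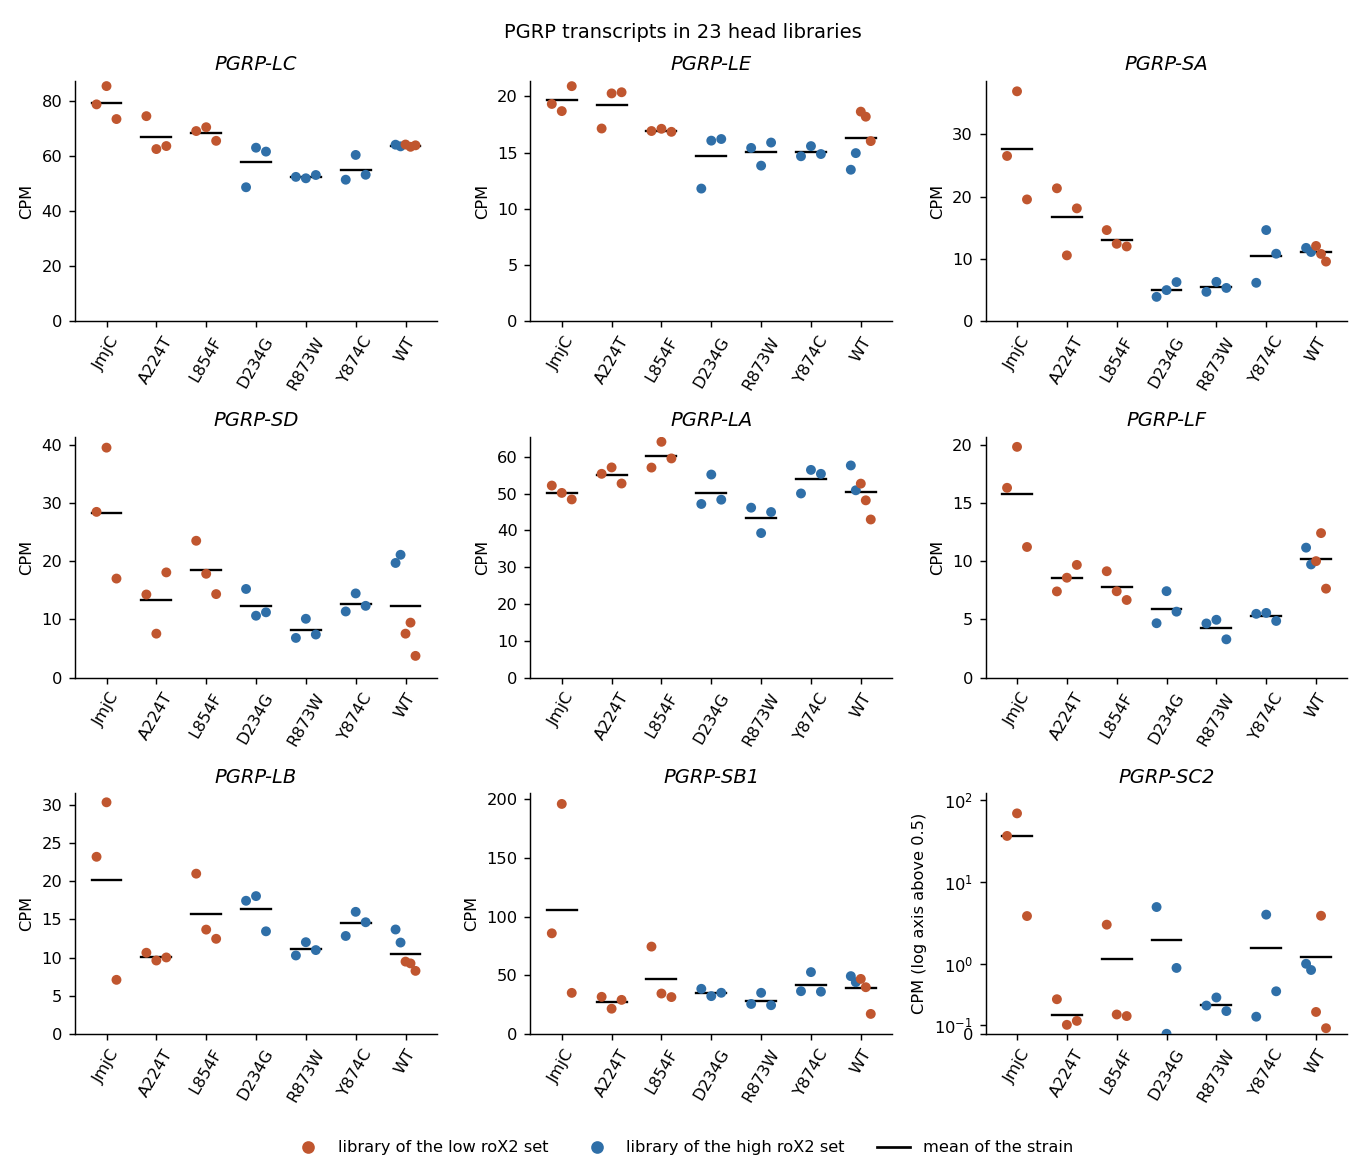
TMM-scaled CPM (y axes, from 0; logarithmic above 0.5 for *PGRP-SC2*) of the 9 tested PGRP genes in 23 head libraries. Points are libraries, coloured by *roX2* set, and bars are strain means (n = 3, WT n = 5). JmjC libraries lie above all WT libraries for *PGRP-LC*, *PGRP-LE* and *PGRP-SA*, and R873W and Y874C lie below all WT libraries for *PGRP-LC* and *PGRP-LF*.

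**Figure D2:**
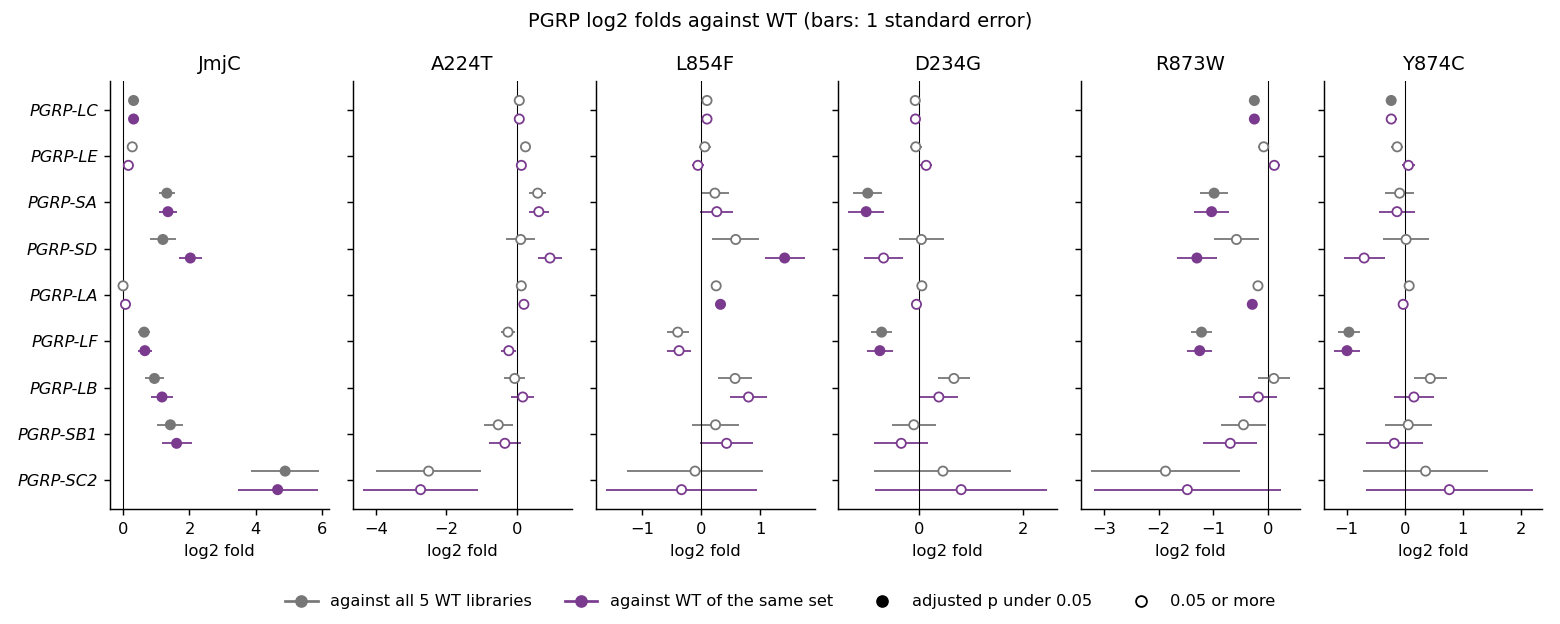
Log2 fold against WT for each strain (panels) and PGRP gene (rows), with bars of 1 standard error and an x axis of its own in each panel. Grey points are against all 5 WT libraries and purple points against WT of the same set. Filled points have an edgeR adjusted p under 0.05. In JmjC 7 of 9 genes are filled and right of 0, and in D234G, R873W and Y874C the filled points are left of 0.

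*PGRP-LC*, the main transmembrane receptor of the Imd pathway, had 78.7, 85.4 and 73.4 CPM in JmjC libraries 1 to 3, against 64.1, 63.5, 64.2, 63.3 and 63.9 CPM in WT libraries 1 to 5. The 5 WT libraries lay within 1 CPM of each other, and all JmjC libraries lay above them. The log2 fold was 0.31 ± 0.07 (SE; edgeR adjusted p = 0.00438), and 0.31 ± 0.08 within the set (adjusted p = 0.00938). Without JmjC 2 the adjusted p was 0.0577.

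In R873W *PGRP-LC* had 52.4, 51.9 and 53.1 CPM, all below every WT library. This was a log2 fold of -0.25 ± 0.08 (edgeR adjusted p = 0.0108), and -0.25 ± 0.09 within the set (adjusted p = 0.0366), both lost without R873W 2 and the within-set call also without R873W 1, WT 1 or WT 2. Y874C had 51.4, 60.4 and 53.2 CPM, also below every WT library. Its log2 fold of -0.23 ± 0.07 had an edgeR adjusted p of 0.0348 against all WT, and of 0.106 within the set (-0.23 ± 0.09). Leaving out Y874C 1 or 3, or WT 3, 4 or 5, ended the call against all WT. D234G had 48.7, 63.0 and 61.6 CPM, and its 2 higher libraries were just under the WT values. A224T (74.5, 62.5 and 63.6 CPM) overlapped WT, L854F (69.1, 70.4 and 65.5 CPM) lay above it, and neither was called.

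*PGRP-LE*, a receptor of the same pathway that acts inside cells and, in a short form, outside them, was called in no strain in either comparison. It had 19.3, 18.7 and 20.9 CPM in JmjC, against 13.5, 14.9, 18.6, 18.2 and 16.0 CPM in WT. All JmjC libraries were above all WT libraries, though barely (18.68 CPM in JmjC 2, against 18.63 CPM in WT 3). The log2 fold of 0.27 ± 0.10 against all WT missed the threshold (edgeR adjusted p = 0.0615). Mean levels were 19.6 CPM in JmjC, 17.6 CPM in WT of the same set and 14.2 CPM in WT of the high set. Between WT libraries the log2 fold of the low against the high *roX2* set was 0.31 ± 0.11 (edgeR adjusted p = 0.0409), a call that ended when WT 1, 2, 3 or 4 was left out.

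*PGRP-SA*, the secreted receptor that starts Toll signalling on lysine-type peptidoglycan, was higher than WT in JmjC and lower in D234G and R873W. JmjC libraries had 26.5, 36.9 and 19.6 CPM, against 11.8, 11.1, 12.1, 10.8 and 9.60 CPM in WT. The lowest JmjC library was above the highest WT library. The log2 fold was 1.32 ± 0.24 (edgeR adjusted p = 0.000397), and 1.35 ± 0.28 within the set (adjusted p = 0.00122), and it kept its call without any single JmjC or WT library.

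D234G had 3.93, 5.02 and 6.30 CPM of *PGRP-SA* and R873W had 4.74, 6.34 and 5.36 CPM. All 6 libraries were below every WT library. The log2 folds were -0.99 ± 0.28 in D234G (edgeR adjusted p = 0.00860) and -0.99 ± 0.26 in R873W (adjusted p = 0.00490). Within the set they were -1.02 ± 0.34 (adjusted p = 0.0303) and -1.03 ± 0.31 (adjusted p = 0.0147). The within-set call was lost without WT 1 or WT 2 in both strains, and in D234G also without D234G 1 or 2.

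Y874C, with 6.19, 14.7 and 10.9 CPM of *PGRP-SA*, overlapped WT and was not called. Its level was above that of both other strains of the set: the log2 fold of D234G against Y874C was -0.88 ± 0.32 (edgeR adjusted p = 0.0348) and that of R873W against Y874C was -0.90 ± 0.28 (adjusted p = 0.0233). A224T had 21.4, 10.6 and 18.1 CPM and L854F had 14.7, 12.4 and 12.0 CPM. Neither was called, although 2 of 3 A224T libraries were above all WT libraries. In order of their means the strains ran JmjC (27.7 ± 8.73 CPM), A224T (16.7 ± 5.52), L854F (13.0 ± 1.41), WT (11.1 ± 0.977), Y874C (10.6 ± 4.24), R873W (5.48 ± 0.807) and D234G (5.08 ± 1.19; SD, n = 3 each, WT n = 5). Library values of every pair of neighbours in this order overlapped, although R873W against Y874C passed the test.

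*PGRP-SD* codes for a secreted protein that aids recognition upstream of Toll and has also been placed upstream of Imd. JmjC had 28.5, 39.5 and 17.0 CPM, against 19.7, 21.1, 7.55, 9.45 and 3.73 CPM in WT. Its WT values split by set, with WT 1 and 2 above WT 3, 4 and 5, and the log2 fold of low-set against high-set WT was -1.55 ± 0.37 (edgeR adjusted p = 0.00360; 27.6% of all genes and 2 of the 9 members were called in this comparison). All JmjC libraries were above the WT libraries of their own set. The log2 fold was 1.20 ± 0.39 against all WT (edgeR adjusted p = 0.0283) and 2.03 ± 0.34 within the set (adjusted p = 0.000216). The within-set call held without any single library of the pair, whereas the call against all WT was lost without JmjC 1, JmjC 2, WT 3 or WT 4.

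L854F had 23.5, 17.8 and 14.4 CPM of *PGRP-SD*, all above the 3 WT libraries of its set. The log2 fold within the set was 1.42 ± 0.34 (edgeR adjusted p = 0.00907), and 0.59 ± 0.40 against all WT (adjusted p = 0.420). The within-set call was lost without L854F 1 or WT 5. R873W had 6.82, 10.1 and 7.40 CPM, all below WT 1 and 2 of its set. Its log2 fold within the set was -1.30 ± 0.36 (edgeR adjusted p = 0.00841; 0.0540 without WT 2), and -0.58 ± 0.42 against all WT (adjusted p = 0.274). A224T (14.3, 7.55 and 18.1 CPM), D234G (15.2, 10.6 and 11.2 CPM) and Y874C (11.4, 14.5 and 12.3 CPM) were not called in either comparison.

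*PGRP-LA* codes for a membrane protein that lacks the residues for binding peptidoglycan and promotes Imd signalling in barrier epithelia. Over the 23 libraries it kept to 39.3 to 64.1 CPM. JmjC had 52.2, 50.2 and 48.4 CPM, against 57.7, 50.9, 52.7, 48.2 and 43.0 CPM in WT, with a log2 fold of -0.01 ± 0.08. Within the set, L854F (57.1, 64.1 and 59.6 CPM) was above its 3 WT libraries, with a log2 fold of 0.33 ± 0.08 (edgeR adjusted p = 0.0111; 0.26 ± 0.08 and 0.0524 against all WT). R873W (46.2, 39.3 and 45.0 CPM) was below its 2 WT libraries, with a log2 fold of -0.29 ± 0.09 (adjusted p = 0.0167; -0.19 ± 0.08 and 0.0648 against all WT). The L854F call was lost without L854F 2 or WT 5, and the R873W call without R873W 2 or WT 1. JmjC was lower than L854F, with a log2 fold of -0.27 ± 0.08 (edgeR adjusted p = 0.0180), where 28.1% of all genes were called.

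R873W was also the lowest of the high-set strains in *PGRP-LA*, with log2 folds of 0.25 ± 0.08 for D234G against R873W (edgeR adjusted p = 0.0247) and of -0.26 ± 0.08 for R873W against Y874C (adjusted p = 0.0204). Of all genes, 43.9% were called between D234G and R873W, 28.5% between R873W and Y874C and 36.1% between D234G and Y874C. Among D234G, R873W and Y874C as a whole, *PGRP-LA* and *PGRP-SA* were the 2 of 9 members that passed edgeR's F-test (adjusted p = 0.0167 and 0.0150), where 55.3% of all genes passed it. Without R873W 2 or Y874C 2 the count was 1, and without D234G 1 it was 3.

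*PGRP-LF* codes for a membrane protein that binds PGRP-LC and holds the Imd pathway down. JmjC had 16.3, 19.8 and 11.2 CPM, against 11.2, 9.72, 10.0, 12.4 and 7.64 CPM in WT. JmjC 1 and 2 were above all WT libraries and JmjC 3 was among them. The log2 fold was 0.63 ± 0.18 (edgeR adjusted p = 0.0144), and 0.65 ± 0.21 within the set (adjusted p = 0.0254). Both calls were lost without JmjC 1 or JmjC 2, and the within-set call also without WT 3 or WT 5.

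All 3 strains of the high set had less *PGRP-LF* than WT. D234G had 4.67, 7.42 and 5.66 CPM, R873W had 4.65, 4.97 and 3.29 CPM, and Y874C had 5.48, 5.56 and 4.86 CPM. Each of these 9 libraries was below each of the 5 WT libraries. The log2 folds were -0.72 ± 0.21 in D234G (edgeR adjusted p = 0.00880), -1.22 ± 0.20 in R873W (adjusted p = 0.000104) and -0.96 ± 0.19 in Y874C (adjusted p = 0.00190). Within the set they were -0.75 ± 0.25, -1.25 ± 0.23 and -0.99 ± 0.23 (adjusted p = 0.0278, 0.000482 and 0.00697). The R873W calls held without any single library. The D234G call was lost without D234G 3, and within the set also without D234G 1, WT 1 or WT 2, and the Y874C call was lost within the set without WT 1.

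A224T (7.40, 8.58 and 9.68 CPM) and L854F (9.14, 7.41 and 6.67 CPM) were not called for *PGRP-LF* against WT. JmjC was higher than both, with log2 folds of 0.87 ± 0.21 against A224T (edgeR adjusted p = 0.00942) and of 1.02 ± 0.21 against L854F (adjusted p = 0.00108). Of all genes, 11.5% were called between JmjC and A224T and 28.1% between JmjC and L854F. In edgeR's F-test among JmjC, A224T and L854F, which uses no WT library, 5 of the 9 members passed: *PGRP-LF*, *PGRP-SA*, *PGRP-SB1*, *PGRP-SC2* and *PGRP-SD* (26.4% of all genes passed). Between A224T and L854F, where 6.52% of all genes were called, the lowest edgeR adjusted p of a member was 0.291, for *PGRP-LB* (log2 fold -0.63 ± 0.31). Without JmjC 2 the count in the F-test was 2.

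*PGRP-LB* codes for a secreted and cytosolic amidase that degrades the peptidoglycan seen by Imd. JmjC had 23.2, 30.4 and 7.08 CPM, against 13.7, 12.0, 9.46, 9.23 and 8.25 CPM in WT. JmjC 1 and 2 were above all WT libraries and JmjC 3 was below all of them. The log2 fold of 0.94 ± 0.29 (edgeR adjusted p = 0.0190; 1.17 ± 0.32 and 0.0104 within the set) rests on those 2 libraries, and JmjC 3 alone gave -0.58 against all WT. The call was lost without JmjC 2 in both comparisons, and without JmjC 1 against all WT. L854F (21.0, 13.7 and 12.5 CPM), D234G (17.4, 18.1 and 13.4 CPM) and Y874C (12.8, 16.0 and 14.6 CPM) were above 4 of the 5 WT libraries, with log2 folds of 0.58, 0.68 and 0.44 that missed the threshold (edgeR adjusted p = 0.255, 0.0796 and 0.314). A224T (9.61 to 10.6 CPM) and R873W (10.3 to 12.0 CPM) were within the range of all WT libraries. Against WT of the low set alone (8.25 to 9.46 CPM), every A224T and L854F library was higher. D234G, R873W and Y874C overlapped WT of the high set. Within the set no strain but JmjC was called.

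*PGRP-SB1*, a secreted amidase of diaminopimelic acid peptidoglycan, had 85.7, 196 and 34.9 CPM in JmjC, against 49.2, 44.0, 46.8, 39.7 and 16.9 CPM in WT. JmjC 1 and 2 were above all WT libraries, and JmjC 3 lay inside the WT range. The log2 fold was 1.42 ± 0.39 (edgeR adjusted p = 0.0105), and 1.61 ± 0.45 within the set (adjusted p = 0.0128). Without JmjC 2 it was 0.59, with an adjusted p of 0.298, and the within-set call was also lost without WT 5. L854F had 74.4, 34.3 and 31.3 CPM, and L854F 1 was above all WT libraries. The remaining strains had 21.4 to 52.6 CPM and were not called. Against A224T (31.5, 21.4 and 28.9 CPM) the log2 fold of JmjC was 1.94 ± 0.46 (edgeR adjusted p = 0.00928). Against L854F it was 1.18 ± 0.45 and missed the threshold (edgeR adjusted p = 0.0552).

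*PGRP-SC2*, a secreted amidase known mostly from the gut and fat body, had 36.3, 68.5 and 3.81 CPM in JmjC, against 0.996, 0.836, 0.240, 3.84 and 0.0611 CPM in WT. JmjC 1 and 2 were far above all WT libraries, and JmjC 3 was just below WT 4, the highest WT library. The log2 fold was 4.90 ± 1.03 (edgeR adjusted p = 0.00163), and 4.67 ± 1.21 within the set (adjusted p = 0.00770). Leaving out JmjC 2 gave a log2 fold of 3.81 within the set with an adjusted p of 0.0570. The call against all WT held without any single library.

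Outside JmjC, *PGRP-SC2* was near 0 in most libraries and above 2 CPM in 1 library each of L854F (2.99 CPM in L854F 1), D234G (4.91 CPM in D234G 1) and Y874C (3.97 CPM in Y874C 2) besides WT 4. A224T (0.0981 to 0.380 CPM) and R873W (0.249 to 0.399 CPM) had no such library, and none of these strains was called. The log2 fold of JmjC was 7.40 ± 1.49 against A224T (edgeR adjusted p = 0.00336) and 5.00 ± 1.24 against L854F (adjusted p = 0.00502).

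*PGRP-SC1a*, a gut amidase, had 0 to 2 counts in 22 of the head libraries and 19 counts (4.67 CPM) in D234G 1, and was not tested. Its near-identical copy *PGRP-SC1b* reached 9.09 CPM in the same library, so the split of reads between the copies is uncertain. D234G 1 also had 692 CPM of summed gut markers, against 34.3 and 157 CPM in D234G 2 and 3 and 41.0 to 68.9 CPM in WT. In D234G, 11 of 15 gut markers tested were called higher by edgeR against all WT and 0 lower, where 25.3% of all genes were higher. Within the set 12 were higher and 1 lower, where 20.3% of all genes were higher and 10.7% lower. The part of gut markers in the *PGRP* values was not tested. *PGRP-LD* and *PGRP-SB2*, the other family genes in the table, had at most 0.608 and 0.211 CPM, and *PGRP-LD* overlaps *Pmi*, *asRNA:CR45026* and *Cralbp*.

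The members called higher in JmjC moved in heads where the antibacterial peptides downstream of Imd were also higher. Of 11 such peptide genes (attacins, cecropins, diptericins and drosocin), all 11 were called higher in JmjC against all WT by edgeR, with a median log2 fold of 4.60, and 10 of 11 within the set (median 4.36). Their summed level was 2163, 3656 and 298 CPM in JmjC, against 32.6, 69.9, 47.9, 246 and 8.19 CPM in WT. All JmjC libraries were above all WT libraries, JmjC 3 by the least. L854F 1 had 703 CPM, against 31.6 and 38.1 CPM in L854F 2 and 3, and all other variant libraries had 13.2 to 144 CPM. In the 5 variant strains none of the 11 was called by edgeR in either comparison (0 to 4 of 11 at an unadjusted p under 0.05). *AttA* and *AttB*, which code for attacins, had log2 folds of 4.22 ± 0.75 and 3.80 ± 0.68 in JmjC (edgeR adjusted p = 0.000367 and 0.000398), and *DptB*, a diptericin, one of 5.30 ± 1.10 (adjusted p = 0.00139).

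Upstream of these peptides, 3 of 13 Imd signalling genes were called higher and 1 lower in JmjC, among them *Rel*, the pathway's NF-kappaB factor, at a log2 fold of 0.60 ± 0.10 (edgeR adjusted p = 0.000163). Of 7 Imd inhibitor genes 3 were higher and 1 lower: *pirk*, which blocks PGRP-LC, was higher by 0.84 ± 0.24 (adjusted p = 0.0138) and *dnr1*, which acts on the caspase Dredd, was lower at -0.59 ± 0.09 (adjusted p = 6.92e-05). Within the set 1 inhibitor was higher and 1 lower. In the Toll cascade that runs from recognition to the ligand spätzle, 6 of 11 genes were called higher in JmjC and none lower (6 and 1 within the set), and *GNBP1*, the partner of PGRP-SA, had a log2 fold of 0.52 ± 0.08 (adjusted p = 5.06e-05). Of 14 Toll effectors 2 were called higher, and 1 within the set.

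Cell markers differed in JmjC as well. Summed hemocyte markers (10 genes, all detected in every library) were 1624 to 1885 CPM in JmjC, against 1058 to 1350 CPM in WT, and 6 of the 10 were called higher (4 within the set). Summed gut markers (19 genes, 16 to 19 detected in JmjC libraries and 12 to 17 in WT libraries) were 141, 243 and 147 CPM in JmjC, against 41.0 to 68.9 CPM in WT, and the 2 of 15 tested that were called were the amylases *Amy-d* and *Amy-p*. Summed fat body markers (9 genes, 8 or 9 detected in each library) were 32831 to 41445 CPM in JmjC, against 49767 to 57755 CPM in WT of the same set. That sum is mostly *apolpp* and the yolk protein genes *Yp1*, *Yp2* and *Yp3*, and the medians of the other 5 markers over all libraries were under 5 CPM. Of the 9 fat body markers none was called higher and 1 lower in JmjC against all WT, and 1 higher and 3 lower within the set. Neuron markers were lower: their sum was 3378 to 3809 CPM in JmjC, against 4147 to 5049 CPM in WT, and 6 of 8 were called lower and none higher in both comparisons, with median log2 folds of -0.44 and -0.32. Glia markers summed to 1903 to 2003 CPM in JmjC, against 2049 to 2355 CPM in WT, and of 7 markers 1 was called higher and 2 lower against all WT, and 1 higher and 1 lower within the set. Photoreceptor markers summed to 47673 to 50686 CPM in JmjC, against 50211 to 61022 CPM in WT. Of these 8 markers, 2 were called lower and 0 higher in both comparisons. The part of all these markers in the *PGRP* results was not tested.

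**Figure D3:**
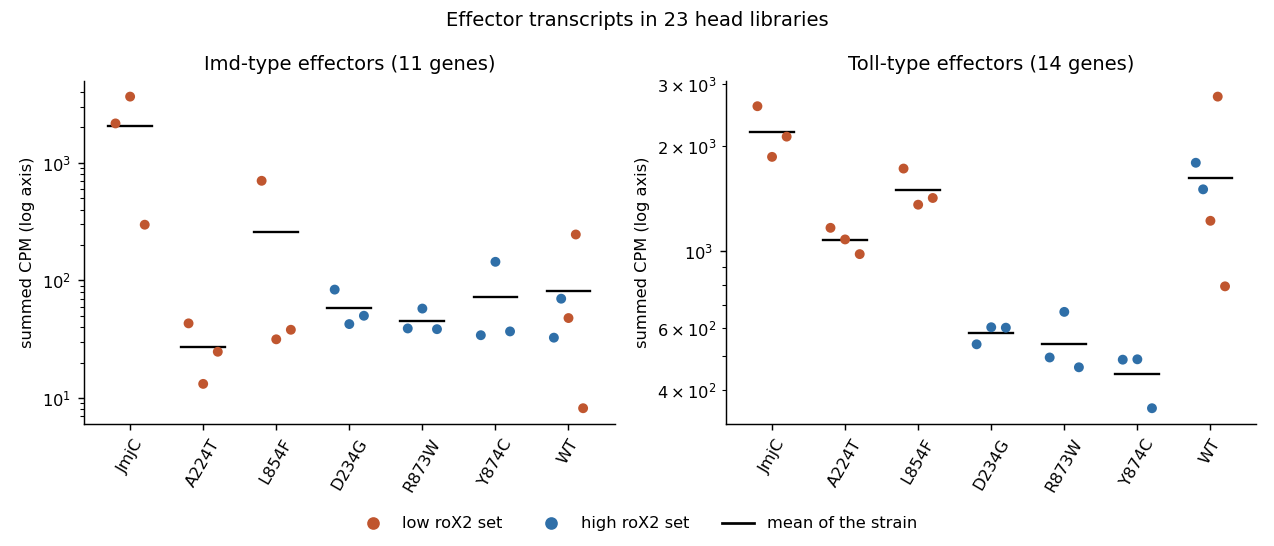
Summed CPM (y axes, logarithmic) of 11 Imd-type effector genes (left) and 14 Toll-type effector genes (right) in each of 23 head libraries, coloured by *roX2* set, with strain means as bars. Imd effectors reach 2163 and 3656 CPM in JmjC 1 and 2, and Toll effectors are 355 to 669 CPM in D234G, R873W and Y874C, against 791 to 2761 CPM in WT.

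In the high-set strains, where *PGRP-LF* and, in 2 of them, *PGRP-SA* were lower, Toll effectors were lower too. Against all WT, 14 of 14 Toll effectors were called lower by edgeR in D234G, 12 in R873W and 12 in Y874C, with median log2 folds of -1.85, -1.51 and -2.13. Within the set the counts were 10, 13 and 12. Their summed level was 540 to 604 CPM in D234G, 464 to 669 CPM in R873W and 355 to 489 CPM in Y874C, against 1786 and 1499 CPM in WT 1 and 2 and 791 to 2761 CPM in WT 3, 4 and 5. *BomS5*, a bomanin peptide gene, had log2 folds of -3.31, -4.23 and -4.57 in D234G, R873W and Y874C.

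Of the 11 Toll cascade genes, 8 were called lower and 1 higher in D234G, 5 lower and 1 higher in R873W, and 4 lower and 1 higher in Y874C, against all WT. Within the set 6, 5 and 2 were lower and 0, 1 and 1 higher. *SPE*, the protease that cuts spätzle, had log2 folds of -0.73, -0.55 and -0.91 in these strains. *nec*, a serpin that restrains the cascade, was lower in all 3 as well (-0.84, -0.85 and -0.54). Hemocyte marker sums were 811 to 1086 CPM in D234G, 795 to 1274 CPM in R873W and 997 to 1250 CPM in Y874C, against 1228 and 1058 CPM in WT of the same set. Of the 10 hemocyte markers, 7 were called lower in D234G against all WT (5 within the set), 4 in R873W (1 within the set, with 1 higher) and none in Y874C (edgeR; 2 at an unadjusted p under 0.05). The 27 male reproductive markers summed to 1460 and 935 CPM in D234G 1 and 3 and to 388 to 1034 CPM in R873W, against 261 and 269 CPM in WT 1 and 2. In D234G 2 they summed to 242 CPM. *Est-6* alone had 241 to 691 CPM over all libraries, and the median of any other male marker was at most 0.655 CPM. Of 25 tested by edgeR, 24 were called higher in D234G and 24 in R873W against all WT, with median log2 folds of 9.42 and 7.71. Within the set 24 and 22 were called higher. The part of either marker group was not tested.

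Within strains, 5 of the 9 members followed the Imd effector sum from library to library. The share of all genes that follow this sum was not computed, so the count cannot be read as particular to the family. Log2 CPM of each member was set against the log2 Imd effector sum over the 23 libraries, after the mean of each strain (for WT, of each set) was taken out. This comparison was added after the values were seen, over 18 relations (9 members by 2 effector sums), with p-values from 100000 permutations within strains. *PGRP-SC2* had a Pearson r of 0.85 (permutation p = 3e-05, adjusted p = 0.00054) and a Spearman rho of 0.87 (permutation p = 3e-05). *PGRP-SB1* had an r of 0.84 (adjusted permutation p = 0.0087; rho 0.90, adjusted p = 0.0018), and *PGRP-SD* had an r of 0.81 (adjusted permutation p = 0.00117; rho 0.83, adjusted p = 0.00117). *PGRP-LB* (r = 0.66, rho = 0.72; adjusted permutation p = 0.0162 and 0.0238) and *PGRP-SA* (r = 0.52, rho = 0.62; adjusted permutation p = 0.0270 and 0.0238) followed less closely.

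*PGRP-LF* had an r of 0.60 and a rho of 0.53, with adjusted permutation p of 0.0678 and 0.122. *PGRP-LC* (r = 0.26), *PGRP-LA* (r = 0.02) and *PGRP-LE* (r = -0.07) did not pass either. With L854F 1 and WT 4, the libraries farthest from the median, left out, r was 0.81 for *PGRP-SC2*, 0.86 for *PGRP-SB1*, 0.81 for *PGRP-SD*, 0.71 for *PGRP-LB* and 0.61 for *PGRP-SA*. The means taken out were still those of all libraries, so L854F 1 and WT 4 still shape these values. They therefore cannot show what r would be free of those libraries. Against the Toll effector sum no member had an adjusted permutation p under 0.05, and the highest r was that of *PGRP-LF* (0.52, rho 0.44; adjusted permutation p = 0.144 and 0.245). Without WT 4 and 5 that r was 0.30, again with the means of all libraries taken out.

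**Figure D4:**
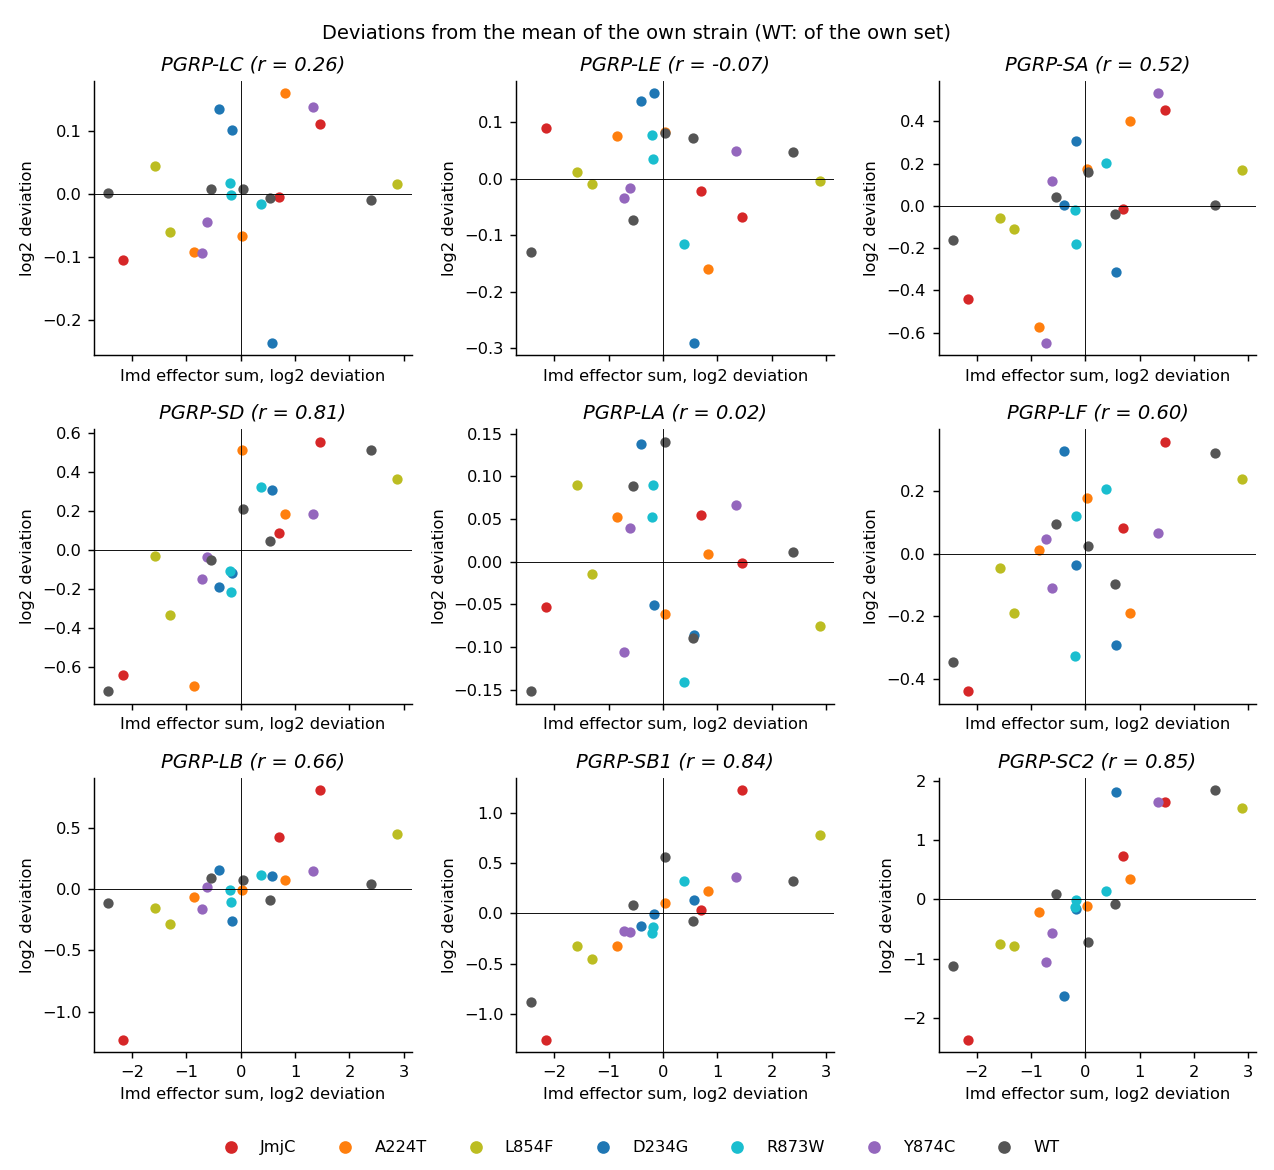
Each member's log2 CPM (y axes) against the log2 Imd effector sum (x axes), both as deviations from the mean of the library's own strain or, for WT, own set, in 23 libraries coloured by strain. Points rise together for *PGRP-SC2*, *PGRP-SB1* and *PGRP-SD* (r = 0.85, 0.84 and 0.81) and r is near 0 for *PGRP-LA* and *PGRP-LE* (r = 0.02 and -0.07).

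The genes whose pattern over the 23 libraries was most like that of each member were sought among the 8200 genes that averaged at least 5 CPM, by Pearson r of log2 values after the mean of each *roX2* set was taken out. For *PGRP-SB1* they were *AttB* (r = 0.94), *AttA* (0.92) and *CecA2* (0.89), 2 attacin genes and a cecropin gene. *PGRP-SC2* was nearest to *CecA2* (0.92), *DptB* (0.91) and *AttC* (0.91). *PGRP-LB* was nearest to *Lsp2* (0.84), a larval serum protein gene of the fat body, *AttB* (0.82) and *Hao* (0.81). The receptors had other neighbours: *CG11695* (0.91), *CG13318* (0.90) and *Nmda1* (0.89) for *PGRP-SA*, *CG31075* (0.91), *lncRNA:CR32368* (0.86) and *Syx18* (0.83) for *PGRP-SD*, *CG7523* (0.83), *CG5002* (0.83) and *alpha4GT1* (0.81) for *PGRP-LC*, and *brwl* (0.71), *Lrr47* (0.70) and *trbl* (0.68) for *PGRP-LE*. *CG11695* lies 14.1 kb from *PGRP-SA* on X. *PGRP-LF* was nearest to *Ser7* (0.89), *CG3505* (0.84) and *Spn43Ad* (0.84), and *PGRP-LA* to *kni* (0.88), *CG6495* (0.86) and *wrapper* (0.83). Strain means were not taken out, so r also holds the differences between strains given above, such as the rise in JmjC. *CecA2*, *AttA* and *Lsp2* had medians of 0.378, 3.02 and 4.24 CPM, under the 5 CPM asked of the mean. Their maxima were 96.7, 134 and 28.2 CPM, so their high libraries brought them among the candidates. These values of r describe the libraries, which share strains and sets, and carry no test.

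In the neuronal kdm5 knockdown 5 members were lower in RNA and 3 in ribosome footprints, and 1 was higher in footprints, depending on the transcript taken. The values are folds of knockdown against control in the authors' deposited table, read as log2, for 1 transcript per gene, with RNA in the column headed rna and ribosome footprints in the column headed rfp. That table gives no value per library, so no error between libraries can be set beside them. Its headers do not name the IP or Input libraries behind rna and rfp, so RNA and footprints may come from different cells. In the authors' deposited table *kdm5*, listed as *lid*, had a fold of -1.01 to -0.97 in RNA and of -2.02 in footprints over its 6 transcripts. In RNA, 5 of the 9 members with an adjusted p were lower at an adjusted p under 0.05 and none was higher, in the authors' deposited table, where 20.7% of 11983 genes were called and 10.7% were lower. In footprints, 1 of 10 members was higher and 3 were lower, where 7.21% of 11665 genes were higher, 17.9% lower and 25.1% called in either direction. For 10 members the footprint counts are near those background shares.

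Among receptors, *PGRP-SA* was lower in RNA by a log2 fold of -0.97 (adjusted p = 3.16e-06) with a footprint fold of 0.19 (adjusted p = 0.657) in the authors' deposited table. In that table *PGRP-LC* had folds of 0.01 in RNA and 0.43 in footprints (adjusted p = 0.968 and 0.140). Of its 10 listed transcripts 2 passed in footprints in the authors' deposited table, both at 0.57, and the others ran down to -0.66. *PGRP-LE* (0.01 and -0.17) and *PGRP-SD* (-0.39 and -0.14) were called in neither column of the authors' deposited table. *PGRP-LA* was the member with higher footprints in the authors' deposited table, at 0.59 (adjusted p = 0.00518), with an RNA fold of 0.02. Another *PGRP-LA* transcript had the same mean RNA count and a footprint fold of 0.17 (adjusted p = 0.718) in the authors' deposited table; with it in place, no member would be higher in footprints. Of the 5 *PGRP-LA* transcripts 3 passed in footprints and 2 did not in the authors' deposited table. *PGRP-LF* was lower in RNA at -0.52 (adjusted p = 0.0198) with a footprint fold of -0.03 in the authors' deposited table.

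Of the 4 amidase genes, *PGRP-SC2* and *PGRP-SB1* were lower in both columns, *PGRP-LB* in RNA alone and *PGRP-SC1a* in footprints alone. Of all genes with an adjusted p in the authors' deposited table, 10.7% were lower in RNA and 17.9% in footprints. The share lower in either column was not computed. In the authors' deposited table *PGRP-SC2* was lower in RNA at -1.18 (adjusted p = 0.00132) and in footprints at -1.63 (adjusted p = 1.56e-08). *PGRP-SB1* was lower at -1.11 in RNA (adjusted p = 2.40e-10) and at -0.39 in footprints (adjusted p = 0.0290) in the authors' deposited table. *PGRP-LB* was lower in RNA at -0.62 (adjusted p = 0.00330), and its footprint fold of -0.68 missed the threshold (adjusted p = 0.0866) in the authors' deposited table. *PGRP-SC1a* had no adjusted p for RNA and a footprint fold of -1.24 (adjusted p = 7.39e-07) in the authors' deposited table, beside -1.22 for its copy *PGRP-SC1b*, with which it may share reads. The Imd effectors were lower too, 10 of 11 in RNA (median fold -1.52) and 4 of 11 in footprints in the authors' deposited table, and so were 10 of 14 Toll effectors in RNA and 3 in footprints. Whether the change in footprints differed from that in RNA was not tested, and the column headed te in the authors' deposited table was not used for it, since te did not hold the difference of rfp and rna. Over 29198 transcripts te correlated at r = 0.690 with rfp and at 0.526 with that difference, a description across transcripts of 1 table. The median absolute gap was 0.0311 between te and rfp and 0.270 between te and the difference. In the 314 transcripts with mean counts of at least 10000 in both columns the correlations were 0.999 and 0.771. Low members fitted neither: *PGRP-SC2* had a te of -5.53 and *PGRP-SC1a* one of -8.50 in the authors' deposited table.

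**Figure D5:**
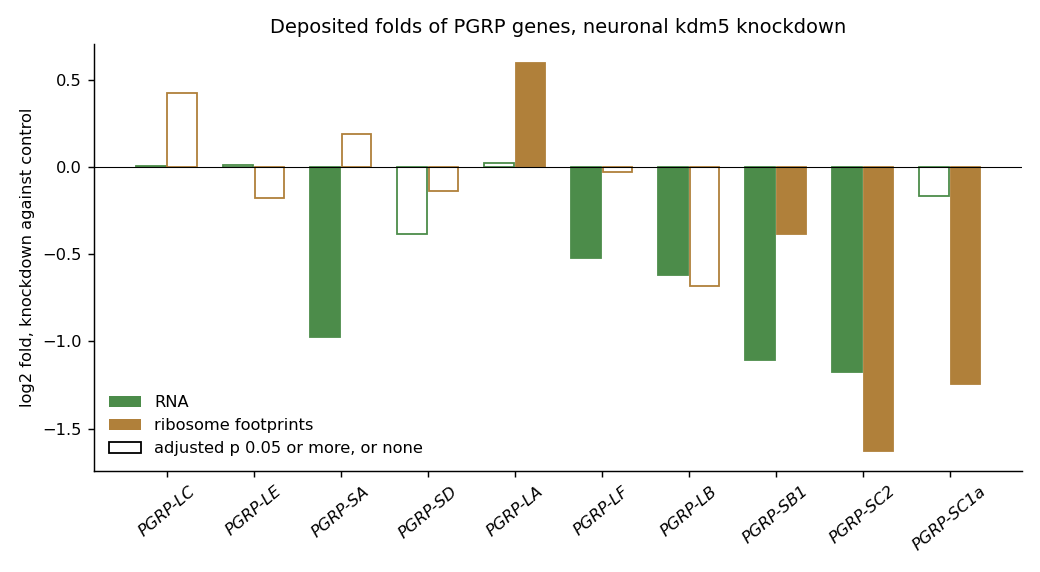
The authors' deposited log2 folds of kdm5 knockdown against control (y axis) for 10 PGRP genes, as paired bars for RNA and ribosome footprints, filled where the adjusted p is under 0.05. The table gives no errors. RNA bars are filled and below 0 for *PGRP-SA*, *PGRP-LF*, *PGRP-LB*, *PGRP-SB1* and *PGRP-SC2*, and *PGRP-LA* has the 1 filled bar above 0, in footprints, for the transcript taken.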

How the data were processed

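RNA-seq was measured in 23 head libraries and Ribo-Seq in 12. The authors' deposited head table holds whole-number counts per gene for 17830 genes among 23882 features; the other rows, 0.764 to 1.52% of each library, were not used. Per the submitters' processing notes, the tools were fastp, STAR, featureCounts and DESeq2 on the dm6 build; their versions, the annotation and any strand setting are not given in the sources used. For Ribo-Seq the authors' deposited comparison table was used: per the file headers its columns rna, rfp and te are folds, read as log2 because the notes name DESeq2, with adjusted p-values per the file headers and mean counts averaged by the authors, whose unit cannot be told from the header and which served as a score to choose transcripts, the highest rna mean per gene and, in a tie, the higher rfp mean. Counts per Ribo-Seq library were not analysed here, so the planned interaction test was not run.

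Counts were fitted in R 4.3.3 with edgeR 4.0.16 (TMM, filterByExpr, 12093 genes kept, quasi-likelihood test, 1 means model over 23 libraries with 7 groups, or 8 with WT split at 5 CPM of *roX2*; that split was known from earlier results). Adjusted p-values for heads are from edgeR unless another tool is named. CPM are TMM-scaled; errors of folds are standard errors. DESeq2 1.42.0 was an alternative. Figures and tables used Python 3.11.15, numpy 2.4.6, pandas 2.3.3 and matplotlib 3.10.9, and the test was checked on simulated counts. That simulation gave all genes the same spread and had no outlying library, so it does not bear on calls that rest on JmjC 1 and 2. The members and all gene lists were chosen with earlier results of these data known. Every member is described, with folds for those called; from each pathway list up to 3 genes of smallest p per strain may be named, and 3 genes of most similar pattern per member. All pairs of libraries within a strain differed by more than sampling noise (chi-square per degree of freedom 7.54 to 149). Values of 118 to 149 were those of WT pairs across the 2 *roX2* sets, and the highest of the others was 83.2 (Y874C 1 and 2). Alternatives were DESeq2, RLE factors, library size alone, no filter, a replicate block, a fit of WT and 1 strain, and leaving out libraries.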

Additional observations from a re-analysis of the deposited data

Results flagged for a closer look

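In 1 of the 9 sets of WT values examined for a library far from the others, WT 4 stood apart: it had 3.84 CPM of *PGRP-SC2*, against 0.996 CPM or less in the other WT libraries, a gap of 0.753 of the whole range. WT 4 also had the highest Imd effector sum of the WT libraries, 246 CPM. Chance flags about 1 in 20 such sets.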

How the results depend on the processing

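The 38 folds of members followed had 483 alternative values, of which 375 kept direction and side of the threshold, 96 lost the threshold, 8 gained it and 4 reversed. The reversals came with JmjC 1 and 2 left out together, an alternative chosen after seeing the data: *PGRP-LB* was -0.58 against all WT and -0.36 within the set, and *PGRP-SB1* was -0.18 and -0.0016. That alternative leaves 1 JmjC library, assumed to vary like the other groups, and gave 0 members called in JmjC in both comparisons and 1 in the F-test of the low set. Leaving out D234G 1 and 2, or D234G 1 and 3 (also chosen after seeing the data, for the low depth or the markers of these libraries), gave 0 in D234G in both comparisons.

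With library size only, 1 member was called in A224T and 1 in Y874C against all WT, 2 in A224T within the set, 1 between WT sets and 8 in the F-test of the low set. DESeq2 gave 1 in L854F against all WT, 1 in A224T within the set and 8 in that F-test. RLE size factors gave 1 in L854F against all WT. Without the filter, Y874C against all WT and the WT sets had 1 each. With only WT and the strain in the fit, JmjC had 3 and Y874C 1. The cause of these shifts was not tested. DESeq2 called 1256 of 12073 genes in L854F against all WT, 2382 of 12085 in A224T within the set and 3540 of 12085 in that F-test. For the alternatives other than DESeq2, the share of all genes called was not computed.

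Replicate numbers did not pair libraries: 63 pairs of the same number had a median correlation of -0.0103 (-0.612 to 0.308), against 0.0140 for 162 pairs of different numbers. A replicate block gave 1 member called in Y874C against all WT, 1 in JmjC, 0 in L854F and 1 in D234G within the set, and 0 between WT sets.

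With 1 library left out, counts against all WT were 2 to 7 in JmjC, 0 to 1 in A224T, 0 to 1 in L854F, 1 to 2 in D234G, 2 to 4 in R873W and 1 to 2 in Y874C. Within the set they were 2 to 7 in JmjC, 0 to 2 in A224T, 0 to 2 in L854F, 0 to 1 in D234G, 2 to 5 in R873W and 0 to 1 in Y874C. They were 1 to 2 between WT sets, 2 to 7 in the F-test of the low set and 1 to 3 in that of the high set. Depth limits D234G 1 and 2 and the members near 0, *PGRP-SC1a* and *PGRP-SC2*.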
